A study of Mus musculus with 23 samples.

Results

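The genes described here encode mitochondrial ribosomal proteins, the protein subunits of the ribosome that works inside mitochondria. They were taken as every entry of the deposited expression table whose symbol begins with Mrpl or Mrps followed by a number. This rule found 77 of the 24506 genes, 48 with a large-subunit symbol (Mrpl) and 29 with a small-subunit symbol (Mrps). By textbook structure, 29 members are large-subunit proteins with a bacterial homologue and 21 are large-subunit proteins found only in mitochondria. Another 16 are small-subunit proteins with a bacterial homologue and 10 are small-subunit proteins found only in mitochondria. Mrps36 was kept because it fits the symbol rule, although its product is now known as a component of the oxoglutarate dehydrogenase complex and not of the ribosome.

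Mitochondrial ribosomes translate the few mRNAs of the mitochondrial genome, which encode core subunits of the respiratory chain and of ATP synthase. All of their proteins are encoded in the nucleus, made in the cytoplasm and imported, while their ribosomal RNAs come from the mitochondrial genome. Mouse oocytes stock mitochondria and maternal mRNA during growth, and the embryo lives on these stores until its own genome is switched on, mainly at the 2-cell stage.

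The study asked what the loss of Cxxc1 does to the transcriptome of oocytes and early embryos. Cxxc1 encodes CFP1, the CpG-binding subunit of the enzyme complexes, built around SETD1, that place methyl groups on lysine 4 of histone H3. RNA sequencing gave 23 mouse libraries in 8 groups, each with 3 libraries except the wild-type 2-cell group with 2. Germinal vesicle (GV) oocytes, the fully grown stage held in meiotic prophase, were collected from wild-type mice of 3 weeks or 3 months, from 3-week Cxxc1 fl/fl;Zp3-Cre females and from 3-month Cxxc1 fl/fl;Gdf9-Cre females. Zp3-Cre deletes floxed alleles in growing oocytes, whereas Gdf9-Cre does so from the primordial follicle onwards, so Cre line and age differ together between both GV comparisons. Zygotes and 2-cell embryos came either from wild-type parents or from Cxxc1 fl/fl;Zp3-Cre females mated with wild-type males. Embryos of deletion mothers therefore carry a wild-type paternal Cxxc1 allele, and the female's age is not given for embryos. The wild-type groups carry no floxed allele or Cre in their labels, and no strain is given. Whether replicate libraries stem from different animals is not stated, so p-values measure only how far these samples spread, and that spread may be technical. Unless stated otherwise it was estimated for each gene over all 8 groups together, and not within the groups compared.

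Values were FPKM, in which the fragments of a gene are divided by its transcript length and by all mapped fragments of the library. Read depth is unknown, and in such bulk samples fewer cells of a type cannot be told apart from less RNA per cell. Cxxc1 itself was at 24.0 to 41.5 FPKM in wild-type GV oocytes and zygotes and at 9.94 and 11.04 in wild-type 2-cell embryos. It was at 0.698 to 1.61 in deletion oocytes and zygotes, and at 1.17, 0.626 and 4.16 in the 3 deletion 2-cell libraries. Deletion 2-cell library 3, which held that highest value, also stood apart in the number of genes reaching an FPKM of 1, which was 12333 here and 10481 and 10187 in the rest of its group. Its correlation with them across genes fell to 0.9359, while replicates correlated at 0.978 to 0.9935 in the other groups. It was the highest of its group in blood or immune markers, at a sum of 42.8 FPKM against 7.37 and 7.67, and in oviduct markers, at 41.1 against 10.1 and 7.72. Counts for deletion 2-cell embryos are therefore also given without it. Defining oocyte markers such as Gdf9 and Zp3 were present in all GV libraries, with 12 listed markers summing to 9924 to 12656 FPKM.

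In wild-type GV oocytes the mitochondrial ribosomal protein genes were expressed at moderate levels with a wide spread among members. The median member was at 24.1 FPKM at 3 weeks and 21.1 FPKM at 3 months, and all 77 members passed the filter of at least 1 FPKM in at least 2 libraries. Together they made up 0.651% ± 0.0125 (SD, n = 3) of total FPKM at 3 weeks and 0.582% ± 0.00752 (SD, n = 3) at 3 months. Mrpl48, a protein of the central protuberance of the large subunit, had the highest mean FPKM of all members in 3-week wild-type oocytes, at 179, 164 and 159 in the 3 libraries. The lowest was Mrpl19, a large-subunit protein with a bacterial homologue, at 1.37, 1.26 and 1.33 FPKM. The group means of these genes differed by a ratio of 127.

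Over all wild-type libraries the members with the highest mean FPKM were Mrpl48, Mrpl9, Mrpl18, Mrpl24 and Mrpl34, and those with the lowest were Mrpl17, Mrps34 and Mrpl19. The order changed with the stage. Mrpl3, Mrpl9 and Mrpl10 led in wild-type zygotes, and Mrps26, Mrpl34 and Mrps7 led in wild-type 2-cell embryos. In deletion 2-cell embryos Mrpl9, Mrps33 and Mrpl18 led instead. The 10 members with the highest mean carried 40.2% of the summed member FPKM in 3-week wild-type oocytes and 57% in wild-type zygotes.

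**Figure D1:**
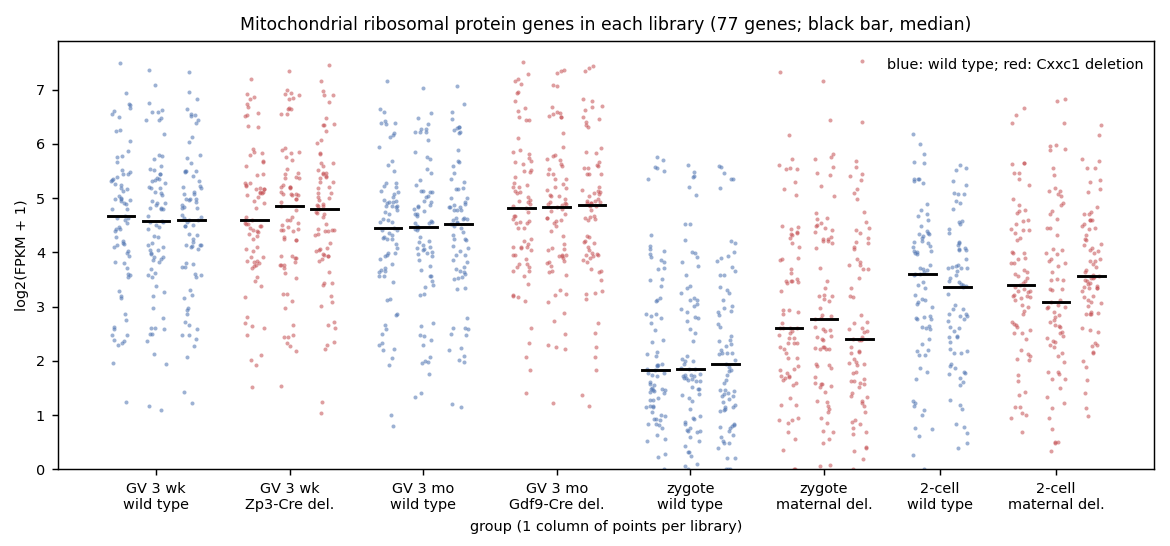
Levels of the 77 mitochondrial ribosomal protein genes in each of the 23 libraries, as log2(FPKM + 1); each point is a gene, each column of points a library, and the black bar is the median. The median drops from the GV oocyte to the zygote in both genotypes, with wild-type zygotes lowest (group median 2.50 FPKM), and is higher again in 2-cell embryos.

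Promoter sequences of 4 members are shown because these genes were among those named most often below and moved in different directions. They come from the RefSeq table of mouse build GRCm38.p6, 150 bases up to the annotated start, written 5′ to 3′ on the gene's own strand. Capitals mark matches to the binding motif of NRF1, a transcription factor known for driving nuclear genes of mitochondrial function. Mrpl12 lies at chr11:120484487-120484636 on the plus strand, Mrpl39 at chr16:84735245-84735394 on the minus strand, Mrps5 at chr2:127587276-127587425 on the plus strand and Mrps6 at chr16:92058186-92058335 on the plus strand.
Mrpl12: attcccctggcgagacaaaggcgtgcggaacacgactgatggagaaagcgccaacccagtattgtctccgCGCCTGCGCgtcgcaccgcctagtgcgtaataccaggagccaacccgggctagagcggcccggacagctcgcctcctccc
Mrpl39: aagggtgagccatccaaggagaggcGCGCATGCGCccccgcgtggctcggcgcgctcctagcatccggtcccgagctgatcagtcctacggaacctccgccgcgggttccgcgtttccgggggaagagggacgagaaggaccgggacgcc
Mrps5: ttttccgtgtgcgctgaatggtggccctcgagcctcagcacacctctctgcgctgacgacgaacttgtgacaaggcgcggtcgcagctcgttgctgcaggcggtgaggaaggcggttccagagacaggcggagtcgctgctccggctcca
Mrps6: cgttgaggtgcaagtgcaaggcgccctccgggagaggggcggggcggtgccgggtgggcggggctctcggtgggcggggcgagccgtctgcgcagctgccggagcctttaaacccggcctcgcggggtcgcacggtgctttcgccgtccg
The windows of Mrpl46 and Mrpl9, named as often, overlap annotated transcripts and are not printed.

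Over the longer window of 250 bases before to 50 after the start, 68 of the 77 members had an entry in the RefSeq table. The NRF1 motif (GCGCANGCG, either strand) occurred in 16 of these 68 promoters (23.5%), against 13.5% of 10388 promoters of genes tested and 6.47% of all 27025. This motif is nearly palindromic, so that the single stretch in Mrpl39 holds 2 overlapping matches. The ETS motif of GABPA (CCGGAAG) occurred in 24 of 68 (35.3%), against 17.3% of genes tested and 9.12% of all. The YY1 motif (AAGATGGCG) occurred in 8 of 68 (11.8%), against 3.06% and 1.49%. The SP1 motif (GGGCGG) occurred in 34 of 68 (50%), against 61.6% and 35.9%. The members held a median of 21 CpG dinucleotides per window, against 20 for genes tested and 7 for all promoters. These are matches of letters and not binding sites.

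Between the GV oocyte and the zygote of wild-type mice, nearly all members fell. Differences were tested with limma on log2(FPKM + 1), and calls required an adjusted p (Benjamini-Hochberg, over 13776 genes) under 0.05. In zygotes against 3-week GV oocytes 70 of the 77 members fell and 2 rose, while 70.1% of all genes tested were called, 50.7% lower and 19.4% higher. The median member difference was -2.44 on the log2 scale, against -0.47 for all genes, and 65 members (84.4%) fell at least 2-fold against 35% of all genes. With median-of-ratios scaling 60 fell and 6 rose, with medians of -1.72 for members and -0.05 for all genes. With quantile normalization 59 fell and 10 rose. The summed members made up 0.167% ± 0.00519 (SD, n = 3) of total FPKM in wild-type zygotes.

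Mrpl12 forms the flexible stalk that recruits translation factors and had the largest fall on the log2(FPKM + 1) scale. All rankings by size use this scale, which understates changes of genes near 0 such as Mrpl33. It stood at 65.2, 54.4 and 64.7 FPKM in the 3-week oocyte libraries and at 0.986, 0.697 and 1.56 in the zygote libraries, with a log2 difference of -4.92 ± 0.15 (SE, adjusted p 8.21e-16). Its partner Mrpl10, which anchors the stalk to the ribosome, moved the other way. Mrpl10 stood at 30.1, 27.00 and 29.5 FPKM in oocytes and 39.9, 43.7 and 47.4 in zygotes, with a log2 difference of 0.58 ± 0.10 (SE, adjusted p 3.7e-05). The lowest zygote library of Mrpl10 lay above the highest oocyte library, whereas all Mrpl12 zygote libraries lay far below.

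Mrpl3, a large-subunit protein near the peptidyl transferase centre, was the other member that rose. It went from 18.4, 20.6 and 19.3 FPKM in oocytes to 52.9, 48.00 and 43.3 in zygotes, with a log2 difference of 1.26 ± 0.19 (SE, adjusted p 4.38e-06). Its groups did not overlap. Mrps22, a small-subunit protein found only in mitochondria, fell from 74.7, 71.8 and 68.8 FPKM to 1.82, 1.88 and 1.15, with a log2 difference of -4.81 ± 0.25 (SE, adjusted p 1.21e-12). Mrpl48, highest in oocytes, stood at 7.98, 4.98 and 5.14 FPKM in zygotes, with a log2 difference of -4.60 ± 0.15 (SE, adjusted p 2.08e-15). Neither gene's groups overlapped. Mrpl33, a small protein of the large subunit, stood at 36.8, 27.3 and 24.8 FPKM in oocytes and was listed at 0 in zygote libraries 1 and 3 and at 0.6603 in library 2, with a log2 difference of -4.67 ± 0.34 (SE, adjusted p 1.86e-10). The 5 members that were not called were Mrpl44, Mrpl53, Mrps14, Mrps23 and Mrps26. Mrps23, for instance, stood at 38.6, 42.8 and 41.5 FPKM in oocytes and 46.1, 32.4 and 39.8 in zygotes, groups that overlap.

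From the zygote to the 2-cell embryo of wild-type mice, most members rose again but several that had stayed high in zygotes fell. Rises were called for 45 members and falls for 11, while 68.5% of all genes were called, 44.5% higher and 24% lower. The median member difference was 0.75, against 0.31 for all genes. With median-of-ratios scaling 41 rose and 20 fell, and with quantile normalization 31 rose and 25 fell. The member medians were then 0.50 and 0.01 and those of all genes 0.09 and -0.22. Large-subunit proteins found only in mitochondria had 17 of 21 members higher and 1 lower, whereas large-subunit proteins with a bacterial homologue had 13 of 29 higher and 6 lower. This difference between the classes was not tested.

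Mrpl12 returned to 38.7 and 29.9 FPKM in the 2 wild-type 2-cell libraries, with a log2 difference of 4.09 ± 0.17 (SE, adjusted p 6.5e-14). Mrps7, which binds RNA in the head of the small subunit, stood at 1.64, 2.32 and 2.83 FPKM in zygotes and 54.9 and 45.8 in 2-cell embryos, with a log2 difference of 3.99 ± 0.18 (SE, adjusted p 1.97e-13). Its 2-cell values exceeded those of GV oocytes, which were 39.6, 38.7 and 43.7. Mrpl46, of the central protuberance, went from 0.891, 0.6297 and 0.403 FPKM to 28.6 and 16.99, with a log2 difference of 3.82 ± 0.41 (SE, adjusted p 5.81e-08). Mrpl43, a large-subunit protein found only in mitochondria, went from 0.547, 0.343 and 0.165 FPKM to 19.2 and 15.5, with a log2 difference of 3.77 ± 0.27 (SE, adjusted p 1.45e-10). For each of these 4 genes both 2-cell libraries lay above all zygote libraries.

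The falls were led by Mrps36, the oxoglutarate dehydrogenase component, which went from 13.2, 9.14 and 11.01 FPKM in zygotes to 1.396 and 2.64 in 2-cell embryos, with a log2 difference of -2.02 ± 0.29 (SE, adjusted p 3.89e-06). Mrpl3 fell back to 21.4 and 12.5 FPKM, with a log2 difference of -1.50 ± 0.21 (SE, adjusted p 2.29e-06). Mrpl9, near the stalk that guides outgoing tRNA, fell from 50.8, 35.7 and 46.4 to 15.1 and 19.4 FPKM, with a log2 difference of -1.31 ± 0.24 (SE, adjusted p 5.75e-05). In all 3 genes the 2-cell libraries lay below every zygote library. Mrpl24, close to the exit of the peptide tunnel, fell from 46.3, 40.9 and 39.7 to 19.3 and 17.3 FPKM, with a log2 difference of -1.16 ± 0.11 (SE, adjusted p 1.82e-08). Its groups did not overlap either.

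The number of members called between ages in wild-type GV oocytes depended on the fit. In the fit over all groups 2 of the 77 members were called, both lower at 3 months, while 3.95% of all genes were called (2.25% higher and 1.7% lower). A fit of only these groups called 18 lower and 2 higher, and array weights 12 lower and 1 higher. The summed share was 0.642% to 0.665% of total FPKM at 3 weeks and 0.573% to 0.588% at 3 months, ranges that do not overlap. Mrps23 stood at 38.6, 42.8 and 41.5 FPKM at 3 weeks and 29.1, 27.7 and 26.6 at 3 months, with a log2 difference of -0.54 ± 0.15 (SE, adjusted p 0.0474). Mrps25, like Mrps23 a small-subunit protein found only in mitochondria, stood at 24.6, 24.5 and 21.4 against 18.02, 17.4 and 17.6, with a log2 difference of -0.39 ± 0.11 (SE, adjusted p 0.0474). Groups did not overlap in either gene, but both calls were lost when any 1 of the 6 libraries was left out, with values of -0.51 to -0.58 for Mrps23 and -0.36 to -0.45 for Mrps25.

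Deletion of Cxxc1 with Zp3-Cre changed few members in 3-week GV oocytes. Here 12 of the 77 members rose and 3 fell, while 29.6% of all genes were called, 18.3% higher and 11.3% lower. The median member difference was 0.17, against 0.09 for all genes. The count of rises was 5 with median-of-ratios scaling, with 3 falls, and 22 when the fit held only these 2 groups. It was 7 without wild-type library 1 or 3 or deletion library 3. Oocyte markers summed to 9924 to 10518 FPKM in deletion oocytes against 12458 to 12656, with 6 of 12 lower, Gdf9 and Zp1 among them. Granulosa or cumulus markers summed to 294 to 303 against 232 to 247, with 2 of 15 higher and Ptx3 and Tnfaip6 listed at 0. The higher ones were Cyp19a1 and Hmgcs1, and most of the rise in the sum was Hmgcs1, at a mean of 151.9 against 86.54 FPKM. Inha, at 19.76 against 18.44, and Amh, Amhr2 and Foxl2 were not called. Of markers of other cells, Krt8, Foxj1 and Cd68 rose, while Cldn4, Prm2 and Smcp fell. Oviduct markers summed to 18.21 to 35.19 FPKM in deletion oocytes against 36.43 to 41.93. The part of these in the result was not tested. The summed members made up 0.711% ± 0.0216 (SD, n = 3) of total FPKM in deletion oocytes.

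Mrpl20, a large-subunit protein whose bacterial homologue acts early in assembly, rose most. It stood at 3.92, 4.64 and 5.35 FPKM in wild-type and 12.6, 12.1 and 14.5 in deletion libraries, with a log2 difference of 1.32 ± 0.24 (SE, adjusted p 0.000387). Mrps6, a small-subunit platform protein, stood at 17.00, 14.1 and 12.4 against 27.4, 30.8 and 31.5, with a log2 difference of 1.00 ± 0.23 (SE, adjusted p 0.00248). Both genes had all deletion libraries above all wild-type libraries. The gene model of Mrps6 overlaps that of Slc5a3, so reads of these genes may not be separable. Mrps18c rose by 0.73 ± 0.19 (SE, adjusted p = 0.00766) and Mrpl27 by 0.72 ± 0.24 (SE, adjusted p = 0.0305) on the log2 scale. The Mrpl27 call was lost in 7 of 14 alternatives, including without wild-type library 1 (0.70), wild-type library 3 (0.55) or deletion library 3 (0.55).

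The 3 members that fell were Mrpl38, Mrpl2 and Mrps5. Mrpl38, of the central protuberance, stood at 40.7, 32.2 and 30.6 FPKM in wild-type and 19.2, 17.7 and 16.00 in deletion oocytes, with a log2 difference of -0.92 ± 0.17 (SE, adjusted p 0.000529). Mrpl2, an RNA-binding protein beside the peptidyl transferase centre, stood at 54.1, 44.9 and 52.1 against 32.1, 36.01 and 33.4, with a log2 difference of -0.56 ± 0.15 (SE, adjusted p 0.00831). Mrps5, near the mRNA entry of the small subunit, stood at 31.8, 28.9 and 27.5 against 20.2, 22.3 and 19.04, with a log2 difference of -0.50 ± 0.17 (SE, adjusted p 0.0349). Groups did not overlap in any of the 3. The Mrps5 call was lost in 7 of 14 alternatives, among them each of the 3 wild-type libraries left out and deletion libraries 1 and 3, with values of -0.45 to -0.55 in these 5 fits.

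In 3-month oocytes with Gdf9-Cre the rises were more numerous. At this age 34 of the 77 members rose and 4 fell, while 49.5% of all genes were called, 34.2% higher and 15.2% lower. The median member difference was 0.45, against 0.20 for all genes. The summed members made up 0.732% ± 0.0211 (SD, n = 3) of total FPKM in these deletion oocytes. The rises numbered 17 with median-of-ratios scaling, 22 with quantile normalization and 53 when only these 2 groups were fitted. The median of all genes was 0.03 and -0.02 under both scalings, and the member median was 0.20 and 0.28. Markers of granulosa or cumulus cells, the cells around the oocyte, were also higher here. Of 15 tested markers 10 rose, 19 listed markers summed to 336 to 423 FPKM against 246 to 266 in wild-type oocytes, and Tnfaip6 was listed at 0 in every library. Oocyte markers summed to 10060 to 10500 FPKM against 11590 to 11750, with Zp1, Gdf9, Bmp15, Oosp1, Zar1 and Mos lower and Zp2 higher. Blood or immune markers summed to 14.73 to 16.23 against 3.902 to 4.418, with Cd68 and Laptm5 higher. Oviduct markers summed to 52.13 to 68.86 against 30.93 to 35.26, with Krt8 and Foxj1 higher. The rise in this sum was mainly Krt8, at a mean of 35.37 against 2.146 FPKM, and Foxj1 was at 0.6816 against 0.02189. Cldn4, at 22.75 against 29.57, and Ovgp1, Krt18 and Epcam were not called, and Pax8 and Wfdc2 were listed at 0 in deletion oocytes. The sperm marker Prm2 fell. The part of all these markers in the result was not tested.

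Mrpl20 was again the largest rise, from 6.22, 2.96 and 3.73 FPKM in wild-type to 16.1, 19.97 and 13.5 in deletion libraries, with a log2 difference of 1.75 ± 0.24 (SE, adjusted p 8.37e-06). Mrpl49, a large-subunit protein found only in mitochondria, went from 3.89, 2.39 and 2.92 to 9.62, 7.51 and 10.3, with a log2 difference of 1.32 ± 0.26 (SE, adjusted p 0.000314). Mrps6 went from 20.3, 15.05 and 13.4 to 43.7, 42.3 and 30.7, with a log2 difference of 1.21 ± 0.23 (SE, adjusted p 0.000227). All 3 genes had separate groups. Mrpl4, which lines the peptide exit tunnel, went from 35.7, 34.1 and 35.2 to 86.1, 72.6 and 78.8, with a log2 difference of 1.15 ± 0.15 (SE, adjusted p 3.15e-06). Its wild-type libraries lay within 2 FPKM of each other and far below the deletion libraries.

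The 4 falls were Mrpl39, Mrpl2, Mrpl38 and Mrps5. Mrpl39, a protein related to threonyl-tRNA synthetase, stood at 14.3, 15.7 and 15.2 FPKM in wild-type and 7.64, 8.35 and 8.78 in deletion oocytes, with a log2 difference of -0.80 ± 0.17 (SE, adjusted p 0.000709). In 3-week Zp3-Cre oocytes it stood at 15.2, 13.9 and 15.4 FPKM, within the spread of the 3-week wild-type values. On the log2 scale the differences were -0.79 ± 0.15 (SE, adjusted p = 0.00026) for Mrpl2, -0.66 ± 0.17 (SE, adjusted p = 0.0038) for Mrpl38 and -0.63 ± 0.17 (SE, adjusted p = 0.00533) for Mrps5. These were the 3 genes that fell in 3-week oocytes.

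**Figure D2:**
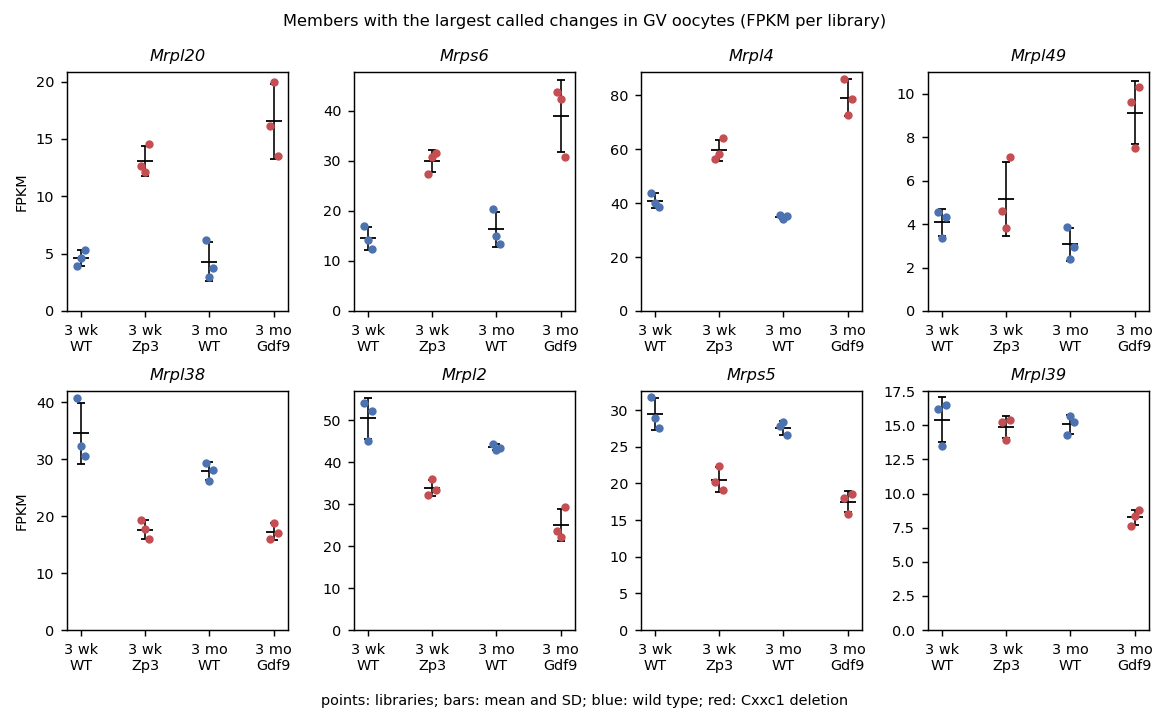
FPKM of 8 members in each GV oocyte library of the 4 groups (3 libraries each), with the mean and SD; WT is wild type, Zp3 and Gdf9 the Cre line of the deletion. Mrpl20, Mrps6 and Mrpl4 are higher in deletion oocytes at both ages, Mrpl38, Mrpl2 and Mrps5 are lower at both, and Mrpl49 and Mrpl39 differ at 3 months.

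The comparisons at 3 weeks and 3 months share no library. Of 12 members higher at 3 weeks, 11 were higher at 3 months (91.7% of the first list and 32.4% of the second), and the 3 lower at 3 weeks were lower at 3 months. Over all genes tested the same shares were 84.4% and 45.1% for higher genes, and 73.1% of the genes lower at 3 weeks were lower at 3 months. Across the 77 members the log2 fold changes correlated at Pearson 0.705 and Spearman 0.616, as a description across genes that are not independent. The test of the difference between both deletion effects called 1 member, Mrpl9, against 4.89% of all genes (3.2% toward a higher value at 3 months). Mrpl9 stood at 122, 134 and 123 FPKM in 3-week wild-type and 106, 112 and 80.8 in 3-week deletion oocytes. At 3 months it stood at 99.4, 81.6 and 94.7 in wild-type and 181, 161 and 172 in deletion oocytes. The difference of the effects was 1.25 ± 0.30 (SE, adjusted p = 0.0224) by limma, and it was not called with median-of-ratios scaling or without some single libraries.

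Zygotes of deletion mothers held more RNA of many members than wild-type zygotes. Rises were found for 37 of the 77 members and a fall for 1, while 46.7% of all genes were called, 35.3% higher and 11.4% lower. The median member difference was 0.51, against 0.22 for all genes, and 21 members (27.3%) rose at least 2-fold against 14.9% of all genes. This split depended on scaling. With median-of-ratios scaling 23 rose and 13 fell, with medians of 0.13 for members and -0.04 for all genes. With quantile normalization 22 rose and 10 fell, with medians of 0.06 and -0.07. The summed members made up 0.296% ± 0.0122 (SD, n = 3) of total FPKM in deletion zygotes, against 0.167% ± 0.00519 (SD, n = 3) in wild-type zygotes. Oocyte markers moved in the same direction, with 10 of 12 higher and 1 lower, and summed to 5566 to 6661 FPKM against 3951 to 4388. Granulosa or cumulus markers summed to 398 to 457 FPKM against 130.5 to 153, mostly as Hmgcs1, with 5 of 15 higher and Foxl2, Hsd17b1 and Ptx3 at 0. The part of either in the members' rise was not tested.

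Mrps28, the small-subunit relative of a bacterial mRNA-binding protein, rose most. It stood at 4.95, 2.68 and 3.84 FPKM in wild-type and 34.9, 55.3 and 41.5 in deletion zygotes, with a log2 difference of 3.22 ± 0.24 (SE, adjusted p 1.21e-09). Deletion zygotes reached the level of 3-week deletion GV oocytes, which was 35.6, 32.8 and 38.1. Mrpl21, a large-subunit protein with a bacterial homologue, stood at 2.33, 2.198 and 2.32 against 18.97, 25.4 and 17.2, with a log2 difference of 2.70 ± 0.17 (SE, adjusted p 7.35e-11). Mrpl39 stood at 1.79, 0.841 and 2.53 against 13.5, 18.1 and 12.7, with a log2 difference of 2.57 ± 0.17 (SE, adjusted p 1.91e-10). All deletion libraries lay above all wild-type libraries in these genes. Mrpl32, whose precursor must be cleaved by a mitochondrial protease before it joins the ribosome, stood at 5.52, 6.76 and 8.52 against 32.5, 41.9 and 33.1, with a log2 difference of 2.22 ± 0.17 (SE, adjusted p 2.29e-09). The groups of Mrpl32 did not overlap.

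The single fall was Mrpl38, which lay below the level set for named members and is given because it is the only one. It stood at 5.95, 6.45 and 6.21 FPKM in wild-type and 1.95, 2.87 and 3.49 in deletion zygotes, with a log2 difference of -0.96 ± 0.17 (SE, adjusted p 0.000125). These groups did not overlap. Mrpl12 rose too but stayed far below its oocyte level, at 0.986, 0.697 and 1.56 against 2.58, 2.76 and 3.45 FPKM, with a log2 difference of 0.93 ± 0.15 (SE, adjusted p 3.96e-05).

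The effect of the deletion in zygotes was tested against its effect in 3-week GV oocytes, which share no library. The difference was called for 26 members, 25 toward a higher value in zygotes and 1 toward a lower one, while 29.4% of all genes were called, 22.4% higher and 7.01% lower. With median-of-ratios scaling the calls were 14 and 5, and with quantile normalization 13 and 6, and the member median of 0.39 became 0.02 and -0.02. The largest differences were those of Mrps28 at 2.93 ± 0.34 (SE, adjusted p = 1.64e-06), Mrpl21 at 2.69 ± 0.24 (SE, adjusted p = 4.01e-08) and Mrpl39 at 2.61 ± 0.24 (SE, adjusted p = 7.27e-08). In GV oocytes these 3 genes had log2 differences of 0.30, 0.00 and -0.04, none of them called.

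In 2-cell embryos of deletion mothers members were called both above and below wild type, as were genes in general. Among the 77 members 36 rose and 20 fell, while 66.5% of all genes were called, 37.1% higher and 29.4% lower. The median member difference was 0.41, against 0.16 for all genes. Rises of at least 2-fold were called for 23 members (29.9%, against 17.9% of all genes) and such falls for 13 (16.9%, against 19.3%). Without deletion library 3 these were 19 and 14. Without deletion library 3 the counts were 34 and 21, and with median-of-ratios scaling they were 29 and 22. The member median was then 0.17 and the all-gene median -0.03, and without wild-type library 2 the member median was 0.21. A fit of only the groups compared gave 25 rises and 14 falls, with 49.2% of all genes called. The summed members made up 0.354% ± 0.00897 (SD, n = 3) of total FPKM in deletion embryos and 0.348% and 0.317% in the 2 wild-type libraries.

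Mrps33, a small-subunit protein found only in mitochondria, rose most. It stood at 11.2 and 10.97 FPKM in the wild-type libraries and 82.03, 110.3 and 70.5 in the deletion libraries, with a log2 difference of 2.85 ± 0.17 (SE, adjusted p 2.37e-11). Mrps5 stood at 1.35 and 0.777 against 10.5, 6.96 and 9.23, with a log2 difference of 2.26 ± 0.19 (SE, adjusted p 3.72e-09). It had fallen in deletion GV oocytes of both ages. Mrpl9 stood at 15.1 and 19.4 against 100.3, 113 and 50.5, with a log2 difference of 2.22 ± 0.24 (SE, adjusted p 9.09e-08). Mrpl14, which lies at the interface of the subunits, stood at 6.02 and 2.75 against 20.2, 20.8 and 23.3, with a log2 difference of 2.13 ± 0.25 (SE, adjusted p 3.01e-07). In all 4 genes the lowest deletion library lay above the highest wild-type library.

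Mrpl49 fell most among the named members. It stood at 18.2 and 16.7 FPKM in wild-type and 1.01, 2.16 and 3.41 in deletion embryos, with a log2 difference of -2.60 ± 0.29 (SE, adjusted p 1.45e-07). This gene had risen in 3-month deletion oocytes. Mrpl46 stood at 28.6 and 16.99 against 3.08, 1.32 and 6.27, with a log2 difference of -2.49 ± 0.41 (SE, adjusted p 2.17e-05). Mrpl43 stood at 19.2 and 15.5 against 1.68, 2.17 and 4.96, with a log2 difference of -2.30 ± 0.27 (SE, adjusted p 2.92e-07). In these genes library 3 was the highest of the deletion group but stayed below both wild-type libraries. Mrps11, an RNA-binding protein of the small-subunit platform, stood at 17.2 and 15.7 against 3.24, 1.52 and 4.77, with a log2 difference of -2.14 ± 0.24 (SE, adjusted p 1.56e-07). Its groups did not overlap either.

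The genes that fell in deletion 2-cell embryos and those that rose from zygote to 2-cell stage in wild type are described with the same wild-type 2-cell libraries, so their values are only set side by side. Mrpl12 had a log2 difference of 4.09 between stages and -1.90 in deletion embryos. Mrps7 had 3.99 and -1.96, and Mrpl43 3.77 and -2.30. Mrps36, Mrpl9 and Mrpl24, which fell in wild type, had -2.02 and 1.87, -1.31 and 2.22, and -1.16 and 1.43. These genes are part of those named for the stage change, and members with opposite signs were not counted. The wild-type 2-cell libraries enter both values in opposite directions, which by itself favours opposite signs. Oocyte markers were higher in deletion 2-cell embryos for all 12 listed genes, with sums of 3498 to 3768 FPKM against 981 and 1155. Granulosa or cumulus markers summed to 241 to 335 FPKM against 84.8 and 93.8, with Hmgcs1 the highest, 3 of 15 higher and 3 lower, and Ptx3 listed at 0. The part of either in these values was not tested.

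**Figure D3:**
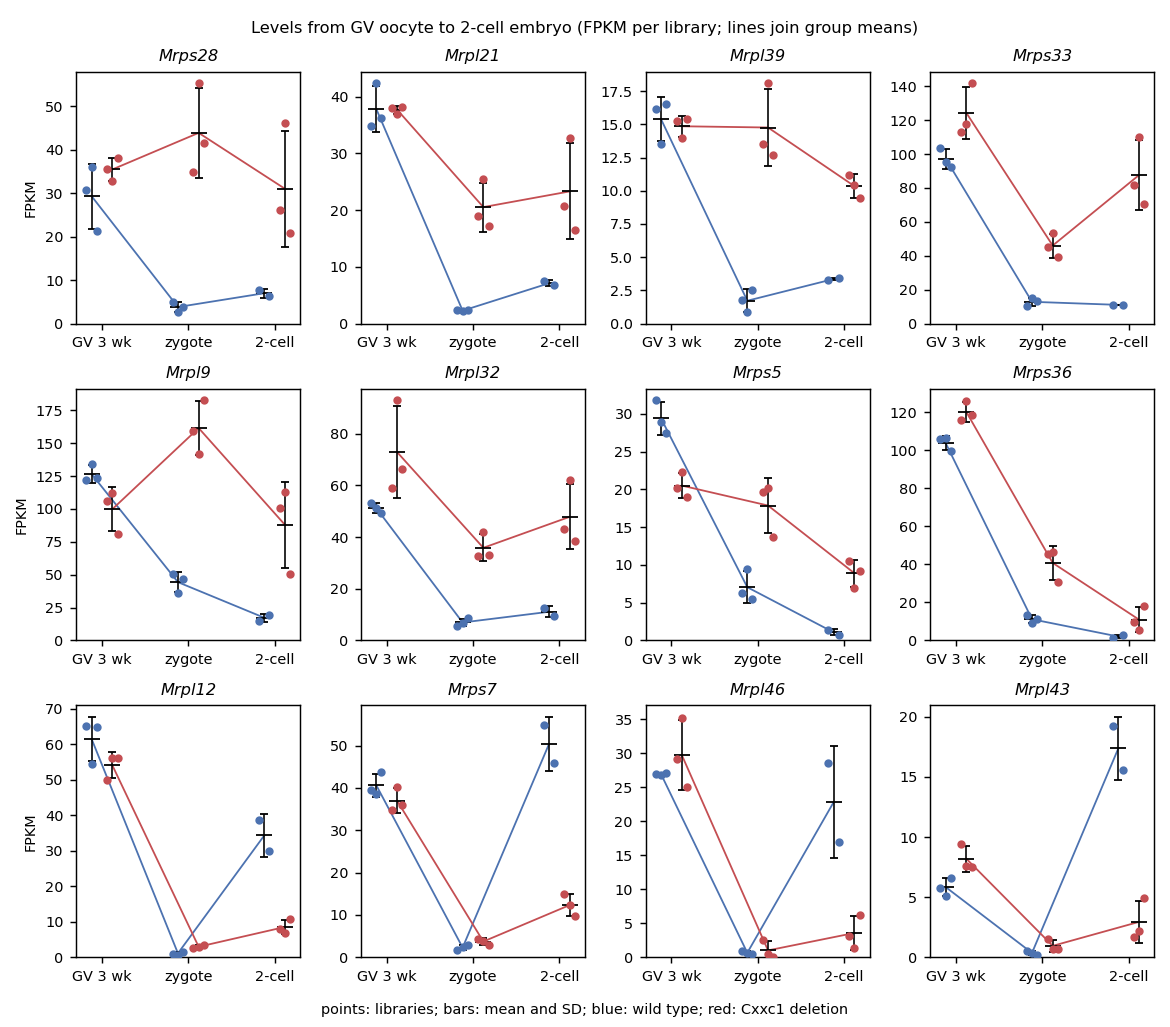
FPKM of 12 members in 3-week GV oocytes, zygotes and 2-cell embryos; points are libraries, bars the mean and SD, and lines join group means of wild type (blue) and Cxxc1 deletion (red). In the upper 2 rows deletion embryos lie above wild type at the 2-cell stage, for example Mrps33 at 70.5 to 110.3 against 10.97 and 11.2; in the bottom row they lie below, for example Mrps7 at 9.69 to 14.9 against 45.8 and 54.9.

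By class, large-subunit proteins with a bacterial homologue had 16 of 29 members higher and 4 lower in deletion 2-cell embryos. Large-subunit proteins found only in mitochondria had 7 of 21 higher and 9 lower. Small-subunit proteins with a bacterial homologue had 6 of 16 higher and 5 lower, and those found only in mitochondria 6 of 10 higher and 2 lower. Without deletion library 3 the counts in this order were 15 and 6, 6 and 8, 6 and 4, and 6 and 3. Symbols of both subunits were alike in share, with 45.8% of Mrpl and 48.3% of Mrps genes higher. Of all genes tested, 37.1% were higher and 29.4% lower at this stage. In deletion zygotes 68.8% and 30% of small-subunit proteins with and without a bacterial homologue were higher, and 51.7% and 33.3% of large-subunit proteins. The share of all genes higher there was 35.3%, near the 30% and 33.3%. With median-of-ratios scaling the zygote calls of all members were 23 higher and 13 lower in place of 37 and 1. Differences between classes were not tested.

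**Figure D4:**
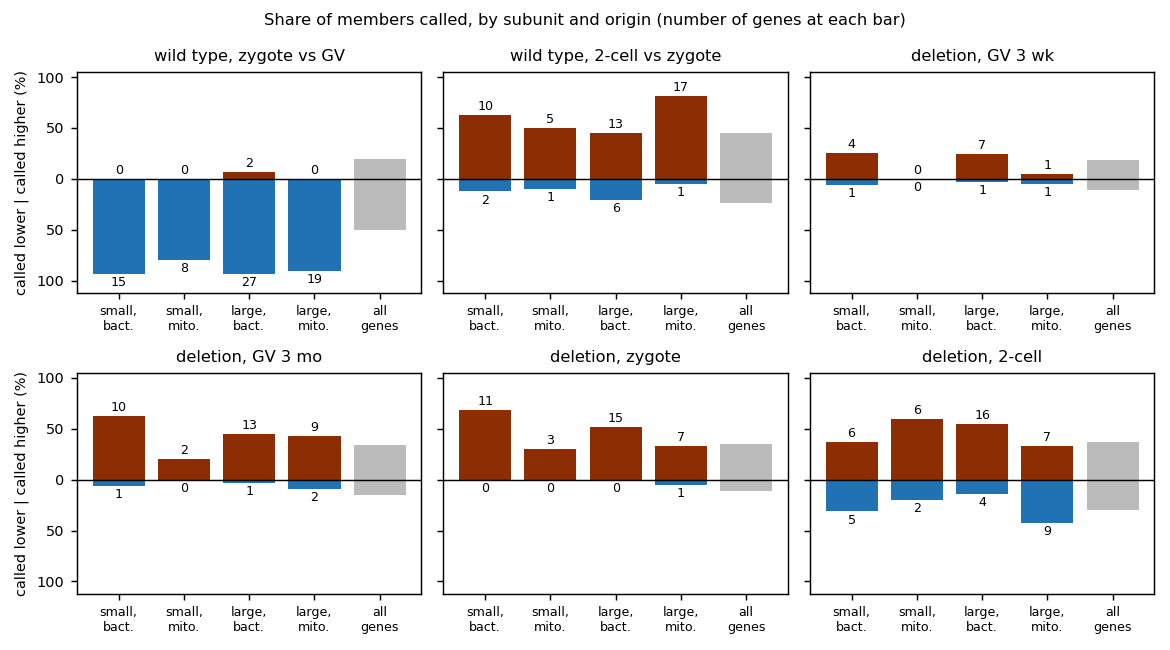
Percentage of members called higher (upward bars) and lower (downward bars) in 6 comparisons, for small- and large-subunit proteins with a bacterial homologue (bact.) or found only in mitochondria (mito.), with the number of genes at each bar and all tested genes in grey. Large-subunit proteins found only in mitochondria have 17 of 21 genes higher from zygote to 2-cell stage in wild type, and 9 of 21 lower in deletion 2-cell embryos.

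The zygote and 2-cell deletion comparisons share no library. Of 37 members higher in zygotes 22 were higher in 2-cell embryos (59.5% of the first list and 61.1% of the second), and 8 (21.6%) were lower there. Over all genes tested the same shares were 58%, 55.1% and 21.5%, close to those of the members. Without deletion 2-cell library 3, 25 of 42 members were higher in both and 8 were lower at the 2-cell stage. Log2 fold changes correlated across the 77 members at Pearson 0.437 and Spearman 0.387. The difference between both effects was called for 40 members, 14 toward higher and 26 toward lower values at the 2-cell stage, while 53.9% of all genes were called, 21.5% higher and 32.4% lower. The split was 15 and 29 without deletion 2-cell library 3, 22 and 26 with median-of-ratios scaling and 31 and 21 with quantile normalization, and the member median of -0.16 became 0.01 and 0.39. A fit of only the groups compared gave 6 and 26, with 45.2% of all genes called. Mrpl24 at 1.36 ± 0.15 (SE, adjusted p = 3.11e-07), Mrps33 at 1.09 ± 0.23 (SE, adjusted p = 0.000447) and Mrps5 at 1.02 ± 0.26 (SE, adjusted p = 0.00237) had the largest positive differences. Mrpl12 at -2.83 ± 0.23 (SE, adjusted p = 3.79e-09), Mrps6 at -2.72 ± 0.34 (SE, adjusted p = 1.28e-06) and Mrpl46 at -2.56 ± 0.55 (SE, adjusted p = 0.000524) had the largest negative ones. The Mrpl46 difference was not called with a pseudocount of 0.1.

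Across the 4 deletion comparisons Mrpl16, Mrpl18 and Mrpl32 were called higher in all 4, and Mrpl38 was the member called lower in all 4. Mrpl18, which binds the ribosomal RNA at the central protuberance, stood at 92.6, 98.1 and 91.01 FPKM in 3-week wild-type and 120.5, 121 and 124 in 3-week deletion oocytes, with a log2 difference of 0.37 ± 0.12 (SE, adjusted p 0.0211). This call was lost with median-of-ratios scaling, at 0.26, and without wild-type library 1 (0.36) or 3 (0.35) or deletion library 3 (0.36). In zygotes Mrpl18 stood at 44.02, 41.3 and 35.4 FPKM in wild-type and 70.7, 85.8 and 83.3 in deletion libraries. In 2-cell embryos it stood at 49.4 and 32.8 against 92.03, 82.8 and 80.4. Mrpl16, a large-subunit protein near the tRNA sites, differed by 0.65, 0.94, 0.38 and 1.21 in 3-week oocytes, 3-month oocytes, zygotes and 2-cell embryos. Mrpl38 differed by -0.92, -0.66, -0.96 and -0.70 in the same order. Another 13 members were higher in 3 of 4 and 15 were called in both directions, with Mrpl20 and Mrps6 in both lists, and 8 were called in none. As shares of the 77 members these patterns were 3.9% higher in all, 1.3% lower in all, 16.9%, 19.5% and 10.4%. Over all genes tested they were 6.21%, 1.53%, 10.3%, 24% and 12.2%. Without deletion 2-cell library 3 the members numbered 4, 1, 16, 16 and 7. These patterns were not recounted with other scalings, and the calls of Mrpl16 were not followed through the alternatives. With median-of-ratios scaling the zygote calls of all members were 23 higher and 13 lower in place of 37 and 1.

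**Figure D5:**
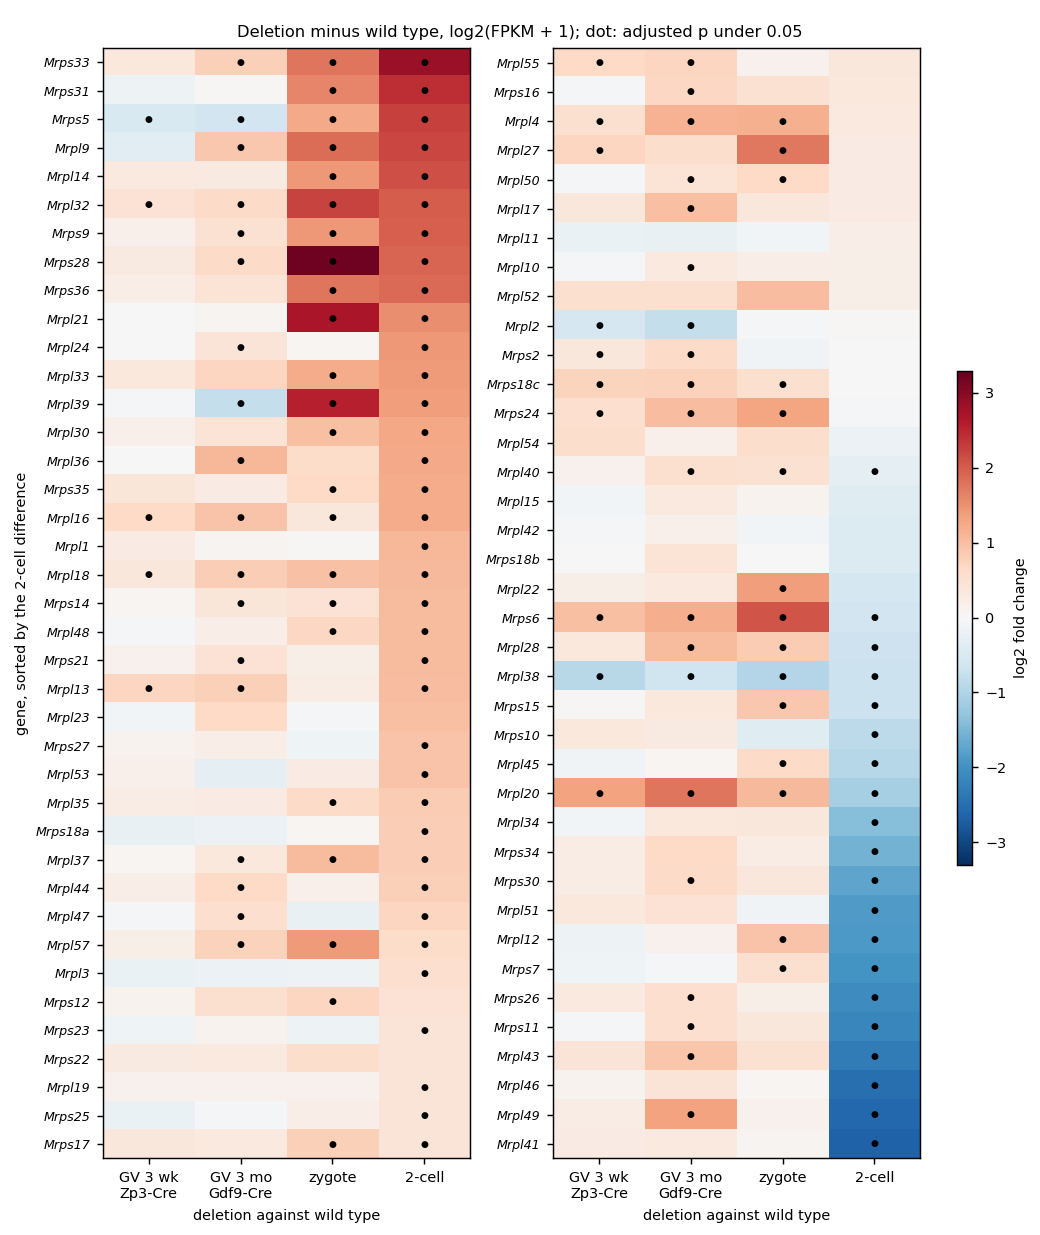
Log2 fold change of each of the 77 members in the 4 deletion comparisons (columns), sorted by the 2-cell value; red is higher and blue lower in the deletion, and a dot marks an adjusted p under 0.05. Of 77 members 36 are called higher and 20 lower at the 2-cell stage. Of the 37 called higher in zygotes, 8 are lower at the 2-cell stage (21.6%, against 21.5% for all genes tested). With median-of-ratios scaling the zygote calls are 23 higher and 13 lower in place of 37 and 1.

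The 3 paralogues of the Mrps18 family differed from each other. Mrps18c, the closest to the bacterial protein, stood at 57.3, 53.8 and 54.4 FPKM in 3-week wild-type and 77.99, 113 and 87.9 in deletion oocytes, with a log2 difference of 0.73 ± 0.19 (SE, adjusted p 0.00766). At 3 months it rose by 0.77 ± 0.19 (SE, adjusted p = 0.00268). Mrps18b, of the small subunit, stood at 42.8, 47.2 and 35.8 against 42.5, 42.98 and 40.7 and was not called in any deletion comparison. Mrps18a, which sits in the large subunit despite its symbol, stood at 39.7, 38.02 and 44.02 against 33.3, 32.9 and 35.6 FPKM in 3-week oocytes and was not called there. At the 2-cell stage it rose by 0.82 ± 0.27 (SE, adjusted p = 0.0128) in groups that overlap, and it was not called when only these groups were fitted or without deletion library 3 (0.51), deletion library 1 (0.66) or wild-type library 2 (0.53). All 3 fell from GV oocyte to zygote in wild type, with log2 differences of -4.38, -3.54 and -3.74 for Mrps18c, Mrps18b and Mrps18a. Reads of paralogues can be shared between them by the authors' quantification.

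Mrps30, which belongs to the large subunit despite its symbol, fell in deletion 2-cell embryos, from 39.7 and 33.1 FPKM in wild-type to 8.601, 14.6 and 8.08 in deletion libraries, with a log2 difference of -1.75 ± 0.24 (SE, adjusted p 2.97e-06). Mrps36 stood at 13.2, 9.14 and 11.01 FPKM in wild-type and 45.2, 46.4 and 30.6 in deletion zygotes, with a log2 difference of 1.77 ± 0.26 (SE, adjusted p 1.2e-05). Both genes had separate groups. Of the low members, Mrpl17 rose in 3-month deletion oocytes from 3.65, 3.901 and 3.27 FPKM to 8.32, 8.25 and 7.78, with a log2 difference of 0.99 ± 0.17 (SE, adjusted p 0.000109). Mrps34 fell in deletion 2-cell embryos from 6.12 and 5.87 FPKM to 1.22, 0.262 and 3.84, with a log2 difference of -1.55 ± 0.47 (SE, adjusted p 0.00713), with library 3 the highest of its group. Mrpl34 fell there from 62.9 and 38.8 to 20.2, 10.2 and 27.4 FPKM, with a log2 difference of -1.41 ± 0.27 (SE, adjusted p 0.000127). The groups of Mrps34 and Mrpl34 did not overlap.

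Genes of 5 other lists are counted next, to be read against the shares of all genes. These were 18.3% higher and 11.3% lower in 3-week deletion oocytes, 34.2% and 15.2% at 3 months, 35.3% and 11.4% in zygotes, and 37.1% and 29.4% in 2-cell embryos. All list counts are from the main fit and were not repeated with other scalings, on which the calls over all genes depend. With median-of-ratios scaling 2804 genes were higher and 4020 lower in zygotes, in place of 4860 and 1571. At 3 months they were 2897 and 3105, in place of 4718 and 2100. Of 6 mitoribosomal proteins with other symbols tested, 1 rose and 1 fell in 3-week deletion oocytes, 2 and 1 at 3 months, 4 and 1 in zygotes, and 3 and 0 in 2-cell embryos, where leaving out library 3 gave the same counts. The shares higher in oocytes, 16.7% and 33.3%, were near those of all genes. Dap3, a GTP-binding protein of the small subunit, was at 53.2 ± 2.95 FPKM (SD, n = 3) in 3-week deletion oocytes and 35.0 ± 0.400 in wild type, a log2 fold change of 0.59 ± 0.11 (SE). At the 2-cell stage Dap3 was at 22.0 ± 4.10 FPKM (SD, n = 3) in deletion embryos and 4.90 ± 0.316 (SD, n = 2) in wild type, a log2 fold change of 1.95 ± 0.12 (SE). Chchd1, a small-subunit protein, was at 7.98 ± 1.51 in deletion and 2.04 ± 0.963 in wild-type zygotes (FPKM, SD, n = 3).

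Of 25 mitoribosome assembly factors tested, 1 rose and 2 fell in 3-week deletion oocytes, 4 and 3 changed in these directions at 3 months, 7 and 3 in zygotes, and 10 and 10 in 2-cell embryos (10 and 9 without library 3). The shares higher were 4%, 16% and 28% before the 2-cell stage, below those of all genes, and 40% were higher and 40% lower at the 2-cell stage. Noa1, a GTPase needed for mitochondrial translation, fell in deletion 2-cell embryos, at 7.91 ± 1.28 FPKM (SD, n = 3) against 52.6 ± 8.58 (SD, n = 2), a log2 fold change of -2.59 ± 0.14 (SE). Tfb1m, which methylates the small ribosomal RNA of mitochondria, rose there, at 15.9 ± 4.25 against 2.10 ± 0.611 FPKM, a log2 fold change of 2.43 ± 0.25. It had risen in deletion zygotes too, by 1.84 ± 0.23. Nsun4, an RNA methyltransferase of the mitochondrial ribosome, rose in deletion oocytes by 0.53 ± 0.09 at 3 weeks and 0.69 ± 0.09 at 3 months.

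Of 15 mitochondrial translation factors, 2 rose in 3-week deletion oocytes and 6 at 3 months, with no falls, 6 rose and 2 fell in zygotes, and 8 rose and 2 fell in 2-cell embryos, with or without library 3. The shares higher were 13.3%, 40%, 40% and 53.3%, of which the first 3 were near those of all genes. Gfm2, which splits ribosomes for recycling, was at 26.5 ± 3.47 FPKM in deletion and 9.79 ± 0.655 in wild-type zygotes (SD, n = 3), a log2 fold change of 1.35 ± 0.11 (SE). At the 2-cell stage Gfm2 was at 26.7 ± 2.13 in deletion and 5.15 ± 1.07 in wild-type embryos. Tufm, the elongation factor that brings tRNA to the mitochondrial ribosome, fell at the 2-cell stage, at a mean of 2.88 against 10.8 FPKM, a log2 fold change of -1.74 ± 0.29.

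The next list holds 16 genes of mitochondrial transcription, RNA processing and DNA replication, the last being Polg, Polg2, Peo1 and Ssbp1. Of these 16 genes, 1 rose and 2 fell in 3-week deletion oocytes and 5 and 4 at 3 months. In zygotes 3 rose and 2 fell, and in 2-cell embryos 6 and 7 (5 and 7 without library 3). The replication genes Peo1, Polg2 and Ssbp1 were among the falls at the 2-cell stage. At 3 months this was 31.2% higher and 25% lower, against 34.2% and 15.2% of all genes. Polrmt, the RNA polymerase of mitochondria, fell in GV oocytes at both ages and in 2-cell embryos. It was at 4.19 ± 0.940 against 11.4 ± 0.892 FPKM at 3 weeks, 2.28 ± 0.0695 against 9.85 ± 0.355 at 3 months, and 1.04 ± 0.546 against 16.1 ± 4.13 in 2-cell embryos. The log2 fold changes were -1.27 ± 0.18, -1.73 ± 0.18 and -3.08 ± 0.20 (SE). Hsd17b10, a subunit of mitochondrial RNase P, rose at 3 weeks by 2.22 ± 0.37 and at 3 months by 2.08 ± 0.37.

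Of 10 nuclear regulators of mitochondrial genes tested, 2 rose in 3-week deletion oocytes, 4 at 3 months and 4 in zygotes, with no falls, whereas 1 rose and 5 fell in 2-cell embryos (1 and 6 without library 3). The single rise at the 2-cell stage was Tfam, which is also counted in the list before. The shares higher were 20%, 40% and 40% before the 2-cell stage, near those of all genes, and 50% were lower at the 2-cell stage against 29.4%. Nrf1, whose motif is marked in the promoters of Mrpl12 and Mrpl39 above, was at 35.1 ± 2.19 FPKM in deletion and 14.5 ± 2.96 in wild-type zygotes (SD, n = 3), a log2 fold change of 1.24 ± 0.12 (SE). Nrf1 was not called at the 2-cell stage, at 37.7 ± 4.04 FPKM in deletion and 35.6 ± 1.34 in wild-type embryos. Gabpb1, at 54.8 ± 10.9 against 44.8 ± 6.78, was not called there either. Of the genes that fell at this stage, Pprc1, a coactivator of NRF1, was at 3.02 ± 0.267 FPKM in deletion against 41.9 ± 6.33 in wild-type embryos, a log2 fold change of -3.41 ± 0.12. Gabpa, the DNA-binding subunit of an ETS-family regulator, was at 2.58 ± 1.24 against 27.6 ± 0.0659 FPKM, a log2 fold change of -3.05 ± 0.21. Yy1 was at 15.6 ± 2.53 against 93.5 ± 6.26 FPKM, a log2 fold change of -2.52 ± 0.13. The mRNAs of the mitochondrial genome itself were not analysed here.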

How the data were processed

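The authors deposited 1 table of FPKM per gene and library (24506 genes, 23 libraries), without read counts, so the depth is unknown and counting error cannot be stated. The submitters' processing notes list TopHat2 2.0.12, SAMtools, Cufflinks 2.2.1 and CASAVA 1.4 without their roles, and give both mm9 and mm10 as builds, so the build behind the RNA values is unclear. For strand, annotation and spike-ins nothing is stated. Bisulfite data were not analysed here.

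The deposited FPKM values were transformed here to log2(FPKM + 1), a scale that understates changes of low genes. The 13776 genes that reached an FPKM of 1 in 2 or more libraries entered 1 linear model with 8 group means over all 23 libraries, fitted with limma (3.58.1, under R 4.3.3), using a mean-variance trend and 15 residual degrees of freedom. Calls used a Benjamini-Hochberg adjusted p under 0.05 over all genes tested. The fit was tested on simulated data with known fold changes.

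The 77 members, the lists and the tests were chosen with earlier results of these data known. Named were, per deletion or stage comparison, the 4 largest called rises and falls with a mean FPKM of at least 5; for age and for differences of effects, the 3 largest; and members fixed by level, paralogy or place. From the other lists up to 3 called genes with the largest change per deletion comparison could be named. Mrpl16 and the single zygote call of Mrpl38 were added after their values were seen.

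Alternatives were a pseudocount of 0.1, 2 other filters, median-of-ratios scaling, quantile normalization, array weights, a fit of only the groups compared, a replicate block and leaving out each library. The titles number replicates 1 to 3 in each group; same-numbered libraries did not deviate together, with 16 correlations between -0.0689 and 0.0576.

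Gene models of 20 of the 77 members overlap another coding gene in RefSeq, among them Mrpl2, Mrpl14, Mrpl18, Mrpl21, Mrpl24, Mrpl27, Mrpl43, Mrpl48, Mrpl49, Mrps6, Mrps7 and Mrps18a, so that reads of either gene may not be separable without strand. Promoter sequences are from RefSeq, GRCm38.p6.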

Additional observations from a re-analysis of the deposited data

Results flagged for a closer look

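Differences between deletion effects were tested with limma on libraries that both effects do not share, and the members named by the rule are listed here because the difference itself was called. Between zygotes and 3-week GV oocytes the differences on the log2 scale were 2.93 for Mrps28, 2.69 for Mrpl21, 2.61 for Mrpl39 and -0.49 for Mrps2. The Mrps2 call was lost in 7 of 20 alternatives, all of which left out 1 library. Mrps2, a small-subunit protein with a bacterial homologue, stood at 15.4, 13.8 and 16.3 FPKM in 3-week wild-type and 19.9, 20.4 and 19.2 in deletion oocytes. In zygotes it was at 10.3, 7.95 and 9.26 in wild type and 8.800, 8.14 and 8.12 in the deletion, groups that overlap.

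Between 2-cell embryos and zygotes the differences were 1.36 for Mrpl24, 1.09 for Mrps33, 1.02 for Mrps5, -2.83 for Mrpl12, -2.72 for Mrps6 and -2.56 for Mrpl46. Mrps6 stood at 2.86, 2.11 and 1.64 FPKM in wild-type and 10.3, 17.5 and 10.5 in deletion zygotes. In 2-cell embryos Mrps6 was at 37.6 and 22.1 in wild type and 23.2, 14.8 and 17.6 in the deletion, where the groups overlap.

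Between 3-month Gdf9-Cre and 3-week Zp3-Cre oocytes the difference was 1.25 for Mrpl9. This call was lost with median-of-ratios scaling (1.11) and without 3-week wild-type library 2 (1.21), 3-month wild-type library 2 (1.17) or Gdf9-Cre library 1 (1.21). Cre line and age cannot be told apart in this difference.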

How the results depend on the processing

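Median-of-ratios scaling gave 5 rises in 3-week oocytes (12 in the main analysis), 17 in 3-month oocytes (34), 23 rises and 13 falls in deletion zygotes (37 and 1), 6 rises from wild-type GV to zygote (2), 20 falls from zygote to 2-cell (11), and 0 calls for age (2) and for the difference between GV effects (1). Quantile normalization gave 22 rises in 3-month oocytes, 22 rises and 10 falls in deletion zygotes, 10 rises from GV to zygote, 25 falls from zygote to 2-cell and 1 call for age. Fitting only the groups compared gave 22 rises in 3-week and 53 in 3-month oocytes, 20 calls for age and 14 for the difference between GV effects. In 2-cell embryos it gave 25 rises and 14 falls (36 and 20). For 2-cell minus zygote it gave 6 calls toward higher and 26 toward lower values (14 and 26). Array weights gave 5 falls in 3-week oocytes (3), 13 calls for age and 14 for the difference between GV effects. A pseudocount of 0.1 and the absence of a filter each gave 1 call for age. The cause of these shifts was not tested.

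Leaving out each library in turn gave 7 to 11 rises and 2 to 3 falls in 3-week oocytes, 23 to 29 and 4 in 3-month oocytes, 33 to 37 and 1 in zygotes, and 29 to 38 and 16 to 21 in 2-cell embryos. It gave 2 rises and 69 to 70 falls from GV to zygote, 40 to 47 rises and 10 to 11 falls from zygote to 2-cell, and 0 calls for age. The differences of effects had 19 to 28 calls for zygote minus GV, 35 to 44 for 2-cell minus zygote and 0 to 2 between GV models. An arm left with 1 library was assumed to vary like the other groups.

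The replicate block gave 1 call for age in place of 2 and changed no other count by more than 1.5 times. Same-numbered libraries did not deviate together. This showed no pairing by number but cannot exclude one, because the labels do not say how samples were collected. Median-of-ratios scaling without deletion 2-cell library 3, chosen after seeing the data, gave 29 rises and 23 falls in 2-cell embryos and 48 calls for 2-cell minus zygote.

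Signs reversed with median-of-ratios scaling for Mrpl24 (-0.53) and Mrpl10 (-0.37) in deletion zygotes, and for Mrpl18 (-0.43) and Mrpl10 (-0.32) from zygote to 2-cell. Mrps18b in deletion zygotes reversed with it (-0.46) and with quantile normalization (-0.52). With quantile normalization Mrpl19 reversed from GV to zygote (0.19), and Mrpl17 (-0.26) and Mrps18a (-0.75) from zygote to 2-cell. Over all values of named members, 1803 alternatives kept the side of the threshold, 89 lost a call, 30 gained one and 9 changed sign with a call on either side. Of the 1803, 48 changed sign, all of them values called in neither fit. FPKM is relative to the library total, so an overall shift in mRNA content between stages cannot be seen.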

Other observations

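Mrpl46 and Mrps11 are the single pair of members that are next neighbours among coding genes in the RefSeq annotation. They lie 41 bases apart, Mrpl46 on the minus and Mrps11 on the plus strand, so that their starts face each other across this gap. In wild-type libraries Mrpl46 stood at 26.95, 26.8 and 27.1 FPKM in 3-week GV oocytes. It was at 0.891, 0.6297 and 0.403 in zygotes and at 28.6 and 16.99 in embryos of 2 cells. Mrps11 stood at 14.9, 11.04 and 17.2, then 0.438, 0.619 and 0.793, then 17.2 and 15.7. Both fell on the log2 scale into the zygote (-4.10 and -3.24), rose by 3.82 and 3.44 to the 2-cell stage and fell in deletion 2-cell embryos (-2.49 and -2.14). This pair was picked after its values were seen, and shared reads or a shared promoter were not tested.

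Mrpl41, a large-subunit protein found only in mitochondria, lay below the level set for named members and was also picked after its values were seen. It stood at 0.166, 0.07797 and 0.1505 FPKM in wild-type zygotes, 11.4 and 9.94 in 2-cell embryos of wild type and 0.615, 0.411 and 1.66 in deletion 2-cell embryos. Its log2 difference at the 2-cell stage was -2.68 ± 0.22 (SE, adjusted p = 1.69e-09) by limma, and its wild-type 2-cell level was above the 2.84 to 3.21 FPKM of 3-week GV oocytes.

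Promoter motifs were counted by call for the members with an entry. The NRF1 motif was in 9 of 32 members higher and 3 of 18 lower in deletion 2-cell embryos, and in 4 of 18 not called. The ETS motif was in 11 of 32, 4 of 18 and 9 of 18 in the same order, and the SP1 motif in 13 of 32, 10 of 18 and 11 of 18. These counts are a description with no test.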
